A study of Mus musculus with 10 samples.

Results

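The genes described here are 47 interferon-stimulated genes, chosen by symbol from the 52097 genes of a deposited expression table of mouse haematopoietic stem cells; all 47 symbols were found. The stem cells came from bone marrow and were sorted, about 5000 per sample, as the CD48- and CD150+ cells of the Lin-, Sca-1+ and c-Kit+ fraction. RNA was measured by bulk sequencing of polyadenylated transcripts amplified with the Smart-Seq V4 low-input kit. The 5 knockout samples are titled Dhx16_CKO and carry the genotype label KO, and the 5 control samples are titled Dhx16_fl and carry the genotype label WT. Dhx16 is an RNA helicase with a DEAH motif that acts in the splicing of precursor messenger RNA. The Cre driver, any inducing agent, and the age and strain of the mice are not given in the sources used here, and nothing states which samples came from separate animals, so p-values measure the spread between these samples, which may be technical. Libraries are called by their column names, CKO7, CKO8, CKO9, CKO12 and CKO13 for the knockout and WT2 to WT6 for the control.

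Interferons are secreted proteins that signal infection. Type I interferons bind a receptor made of Ifnar1 and Ifnar2, whose kinases Tyk2 and Jak1 phosphorylate STAT proteins; Stat2 and Irf9 are parts of the factor ISGF3, which binds a DNA element called ISRE in the promoters of its targets. Interferon gamma uses the receptor chains Ifngr1 and Ifngr2, and its response acts through a second element called GAS. The induced proteins block viral entry, degrade or edit RNA, sense foreign nucleic acid, or feed back on the pathway, and stem cells are known to hold a basal level of many of them without infection.

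Dhx16 itself checked the labels. It had 10.9, 10.6, 8.80, 7.10 and 10.1 FPKM in the knockout libraries, against 22.6, 20.5, 14.6, 15.5 and 14.3 FPKM in the controls, where FPKM counts fragments per length of transcript and per size of library. The groups did not overlap, and Dhx16 was lower in the knockout by limma (log2 difference -0.81, SE 0.16, adjusted p = 0.000638), with residual RNA in every knockout library. The FPKM values of a library summed to between 770789 and 966648. Relative to WT2, sequencing depth lay between 0.959 and 1.49 in the knockout libraries and between 0.995 and 1.68 in the controls. Genes of the sort phenotype and stem cell identity were 8 in number, among them Kit, Ly6a, Slamf1 and Procr. They summed to 414.7 to 644.6 FPKM in the knockout and 589.8 to 877.8 FPKM in the control. Of the 7 tested, 5 were lower in the knockout, against 31.6% of all tested genes, and none of the 8 was at 0 in all libraries. Macrophage markers were C1qa, C1qb, C1qc, Mrc1, Adgre1, Cd163, Vcam1 and Csf1r. They summed to 17.19 to 38.03 FPKM in the knockout and 154.6 to 320.4 FPKM in the control. The 4 of them that could be tested were all lower in the knockout (background 31.6%). Erythroid markers other than globins summed to 753.4 to 1177 FPKM in the knockout and 119.8 to 396.6 FPKM in the control. Of these, 8 of 8 were higher (background 21.1%). Megakaryocyte markers summed to 695.4 to 1374 FPKM in the knockout and 1438 to 2101 FPKM in the control. Of these, 6 of 6 were lower (background 31.6%). Mecom, Procr and Pf4 were called under 3 of the 5 library scalings described below. The other genes called in these lists were called under all 5 (background 11% lower and 15.3% higher). Granulocyte markers summed to 8348 to 40840 FPKM in the knockout and 9623 to 74170 FPKM in the control, and bone matrix markers to 4549 to 47780 FPKM in the knockout and 3180 to 65870 FPKM in the control, with no marker of either list called. Plasmacytoid dendritic cell markers summed to 7.98 to 10.49 FPKM in the knockout and 12.55 to 20.1 FPKM in the control. Most of it was Runx2 (8.62 FPKM on average in the knockout and 13.8 FPKM in the control), which is not specific to that cell type. T and NK cell markers summed to 66.54 to 125.3 FPKM in the knockout and 59.78 to 163.8 FPKM in the control, with none called. B cell markers summed to 18.81 to 32.38 FPKM in the knockout and 30.1 to 49.85 FPKM in the control. The 1 tested B cell marker, Cd79b, was lower (background 31.6%). None of the markers of these immune lists was at 0 in every library. The part of these other cell types in the values below was not tested, and in bulk samples fewer cells of a type and less RNA per cell cannot be told apart.

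The promoters of the genes were searched for the 2 elements of the pathway in RefSeq windows of 300 bases, 250 of them upstream of a transcription start, on assembly GRCm38.p6. The ISRE was taken as 2 copies of GAAA with any 2 bases between them and GAS as TTCNNNGAA, each searched on both strands with overlapping matches counted. Of the 37 members with a window, 18 (48.6%) held the ISRE letters, against 1079 of 27025 genes (3.99%), and 12 (32.4%) held the GAS letters, against 9.55% of genes. The stretches below are the 150 bases just upstream of the start of 6 members, shown because they span the roles of the list: an RNA-binding effector, a radical SAM enzyme, a ubiquitin-like modifier, 2 GTPases and a ubiquitin ligase. Each reads 5′ to 3′ on the strand of its gene, and capitals mark ISRE matches on either strand.
Ifit1 (chr19:34640739-34640888, plus strand): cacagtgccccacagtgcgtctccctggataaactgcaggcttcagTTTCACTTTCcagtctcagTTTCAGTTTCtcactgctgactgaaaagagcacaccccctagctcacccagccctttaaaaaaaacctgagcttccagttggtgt
Rsad2 (chr12:26456453-26456602, minus strand): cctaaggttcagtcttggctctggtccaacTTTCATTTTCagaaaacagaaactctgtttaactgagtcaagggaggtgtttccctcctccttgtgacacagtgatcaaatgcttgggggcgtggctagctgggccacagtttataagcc
Isg15 (chr4:156200819-156200968, minus strand): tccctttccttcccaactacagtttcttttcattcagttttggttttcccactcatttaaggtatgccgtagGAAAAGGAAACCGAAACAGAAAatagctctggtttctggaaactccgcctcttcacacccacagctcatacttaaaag
Gbp2 (chr3:142620513-142620662, plus strand): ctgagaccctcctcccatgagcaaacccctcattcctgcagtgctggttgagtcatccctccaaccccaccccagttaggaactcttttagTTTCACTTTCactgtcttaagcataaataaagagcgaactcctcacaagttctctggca
Irgm1 (chr11:48871421-48871570, minus strand): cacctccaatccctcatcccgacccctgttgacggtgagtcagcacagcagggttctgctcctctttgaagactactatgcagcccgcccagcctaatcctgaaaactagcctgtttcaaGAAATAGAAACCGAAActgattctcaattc
Trim30a (chr7:104465194-104465343, minus strand): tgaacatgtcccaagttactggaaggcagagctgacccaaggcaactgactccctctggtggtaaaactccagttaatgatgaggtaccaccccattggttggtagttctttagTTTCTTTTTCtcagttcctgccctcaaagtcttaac
Isg15 held 3 overlapping matches, Ifit1 and Irgm1 held 2 each, and Rsad2, Gbp2 and Trim30a held 1 each. A match is a description of the letters and not a shown binding site.

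Most interferon-stimulated genes did not pass the test between knockout and control, and in the FPKM values as deposited those that did were mostly lower in the knockout. Of the 47 members, 37 reached 10 FPKM in at least 5 libraries and were tested. Isg20 and Lgals3bp were higher in the knockout, which is 5.41% of the tested members, against 21.1% of all 6913 tested genes. Stat2, Ifit2, Ifih1, Samhd1, Trim25, Trim30a, Sp100, Dtx3l and Gbp2 were lower, which is 24.3% of the tested members, against 31.6% of all tested genes, and 26 members were not called. The median log2 difference of the tested members was -0.20, against -0.12 for all tested genes, and 20 of the 37 lay below that median of all genes. The groups of 5 libraries did not overlap for Isg20, the 1 tested member with the knockout above the control (background 12.9%), and for Ifit2, Ifih1, Samhd1 and Sp100, the 4 with the knockout below it (background 22.1%). Calls here are adjusted p under 0.05 from limma on log2(FPKM + 1), a scale that understates the change of low genes.

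The counts in each direction depended on how the libraries were scaled to each other. The FPKM values as deposited put the median of all tested genes at -0.12, and it was -0.13 after upper-quartile scaling, -0.25 after equal totals, 0.25 after median-of-ratios scaling and 0.27 when the groups were shifted to the fold changes of the authors' deposited table. The members moved with that median and stayed 0.08 below it in each case. They were called 2 higher and 9 lower as deposited, 4 higher and 12 lower after upper-quartile scaling (23.1% and 35.3% of all genes), 1 higher and 14 lower with equal totals, 12 higher and 2 lower with median-of-ratios scaling, and 11 higher and 1 lower after the shift. All genes were called higher and lower in 44.2% and 11.8% of cases with median-of-ratios scaling, in 43.7% and 11.5% after the shift, and in 15.3% and 38.7% with equal totals. Isg20 was called higher under all 5 scalings (background 15.3%) and Sp100 was called lower under all 5 (background 11%). Lgals3bp was called higher in 4 of them and Samhd1 lower in 4, while 10 members were called in none and 0 members were called in opposite directions.

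**Figure D1:**
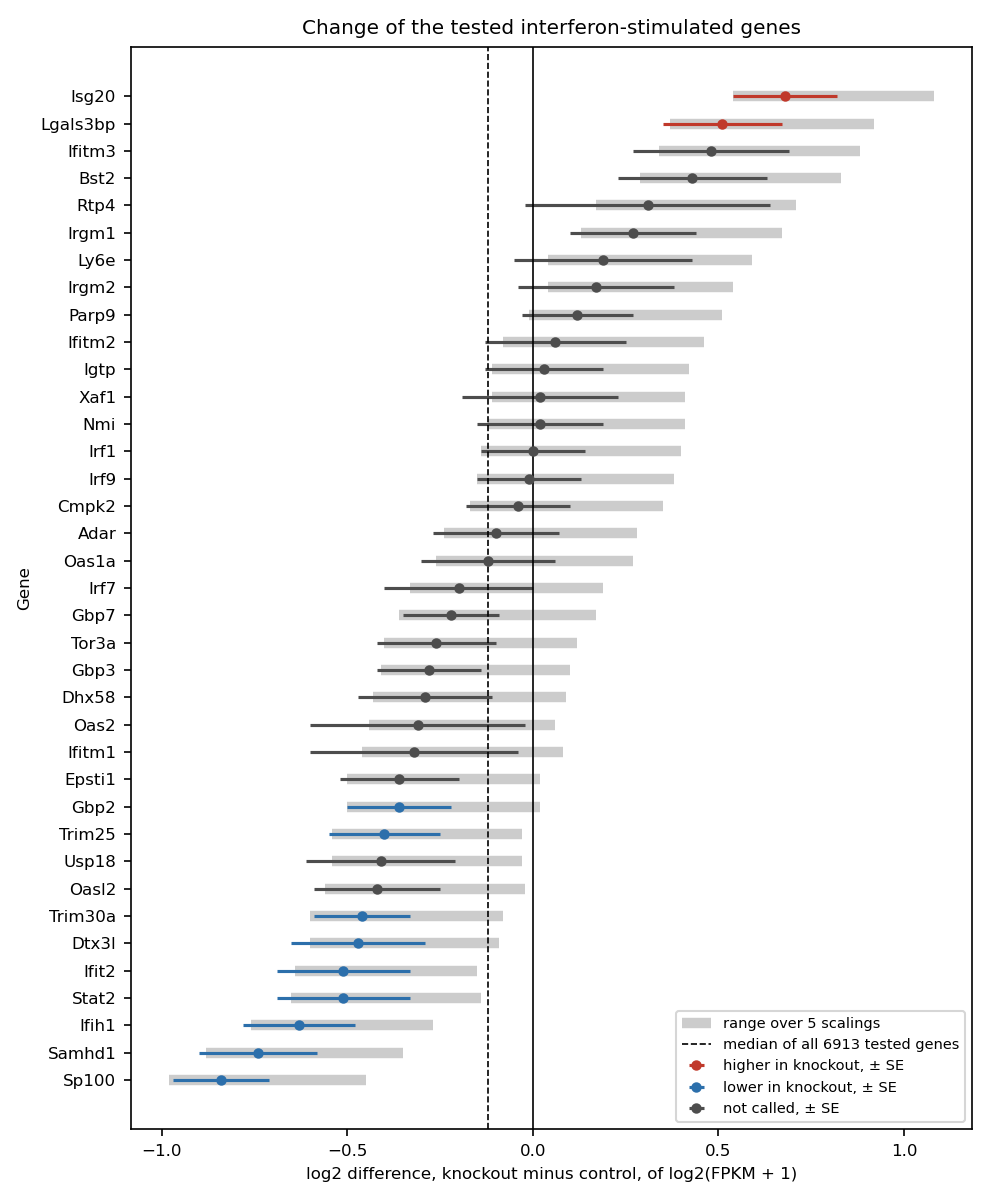
Log2 difference (knockout minus control, log2(FPKM + 1), x axis) of each of the 37 tested members (y axis), with bars for the SE, colours for the limma call and grey bands for the range over 5 scalings. The dashed line is the median of all tested genes at -0.12; of the grey bands of called genes, that of Gbp2 alone crosses 0, and those of Isg20 and Sp100 stay farthest from it on either side.

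Among the transcription factors, Stat2, the interferon-specific STAT of ISGF3, had 11.8, 12.8, 14.0, 6.61 and 10.1 FPKM in the knockout libraries, against 20.8, 15.2, 15.8, 14.0 and 13.8 FPKM in the controls. The groups overlapped only where CKO9 met WT5 and WT6, with CKO12 lowest and WT2 highest. Stat2 was lower in the knockout by limma (log2 difference -0.51, SE 0.18, adjusted p = 0.0247), and the call was lost without WT2, CKO12 or CKO13, where the adjusted p reached 0.0705. It was also lost with median-of-ratios scaling (-0.16, limma adjusted p = 0.411), after the shift (-0.14), with no filter and with library weights (-0.35, limma adjusted p = 0.0534). Irf9, the DNA-binding subunit of ISGF3, averaged 46.2 ± 5.24 FPKM in the knockout and 47.2 ± 10.2 FPKM in the control (SD, n = 5 each), a log2 difference of -0.01 that became 0.37 and passed the test with median-of-ratios scaling (limma adjusted p = 0.0144). Irf1, a factor of the interferon gamma response, had 124, 106, 93.5, 91.5 and 122 FPKM in the knockout, against 138, 86.8, 94.8, 119 and 100.4 FPKM in the control. Those ranges lay over each other, and its log2 difference was 0.00 (SE 0.14). It was called higher at 0.39 with median-of-ratios scaling (limma adjusted p = 0.0248) and at 0.40 after the shift. Irf7, which amplifies type I interferon production, averaged 25.0 ± 4.70 FPKM in the knockout and 29.5 ± 9.40 FPKM in the control and was not called.

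Nucleic acid sensors included 1 call. Ifih1, also called MDA5, binds long double-stranded RNA in the cytosol. It had 8.34, 9.94, 10.6, 6.51 and 8.28 FPKM in the knockout libraries, against 17.8, 14.5, 14.2, 12.0 and 11.9 FPKM in the controls. Every knockout library lay below every control library, and Ifih1 was lower by limma (log2 difference -0.63, SE 0.15, adjusted p = 0.00277), under 3 of 5 scalings. Dhx58, or LGP2, a helicase that assists Ifih1, averaged 16.4 ± 3.98 FPKM in the knockout and 20.5 ± 5.39 FPKM in the control and was not called under any scaling. Zbp1, a sensor of left-handed nucleic acid, ranged from 5.99 to 13.8 FPKM in the knockout and from 6.23 to 16.5 FPKM in the control. Eif2ak2, the double-stranded RNA-activated kinase PKR that stops translation, ranged from 6.88 to 9.79 FPKM in the knockout and from 4.70 to 12.0 FPKM in the control; both sensors were below the filter and their groups overlapped.

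The IFIT proteins bind foreign RNA ends and stop their translation. Ifit2 had 10.1, 9.18, 10.2, 4.36 and 7.71 FPKM in the knockout libraries, against 12.6, 11.4, 12.4, 11.6 and 11.3 FPKM in the controls. The groups did not overlap, CKO12 was lowest, and the controls lay close together. Ifit2 was lower in the knockout by limma (log2 difference -0.51, SE 0.18, adjusted p = 0.0273), a call lost without WT2 or CKO13 and also with median-of-ratios scaling (-0.17, adjusted p = 0.421), after the shift (-0.15) and with no filter. Ifit1 was below the filter and had 4.28, 5.69, 5.53, 4.30 and 4.95 FPKM in the knockout, against 13.8, 11.3, 11.9, 6.70 and 6.24 FPKM in the control. No knockout library reached the lowest control. Ifit3 ranged from 1.23 to 4.24 FPKM in the knockout and from 2.49 to 5.46 FPKM in the control, and its groups overlapped.

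A lower filter, 1 FPKM in at least 5 libraries, admitted all 47 members. With it the calls were 2 higher (background 13.4%) and 12 lower (background 36.4%), and the members' median was -0.22 against -0.26 for all 13448 genes then tested. The 3 added calls were Ifit1 (log2 difference -0.83, SE 0.20, limma adjusted p = 0.00442), Rsad2 (-0.74, SE 0.12, adjusted p = 0.00041) and Helz2 (-0.54, SE 0.13, adjusted p = 0.00456). Rsad2, or viperin, a radical SAM enzyme that makes a chain-terminating nucleotide, had 5.56, 5.96, 5.01, 5.79 and 5.13 FPKM in the knockout libraries, against 11.0, 11.1, 10.3, 8.66 and 8.30 FPKM in the controls. Helz2, a helicase and transcriptional coactivator, ranged from 2.80 to 4.36 FPKM in the knockout and from 4.88 to 6.48 FPKM in the control. For all 3, every knockout library lay below every control library. The share of such genes at this lower filter is not given here, and these 3 calls were not run under the other scalings. In the authors' deposited table Ifit1 and Rsad2 were lower, and Helz2 stood at -0.16 with an adjusted p of 0.511. The remaining low members overlapped between groups: Mx1, a GTPase against influenza, ranged from 0.77 to 3.31 FPKM in the knockout and from 1.89 to 3.96 FPKM in the control, and Parp14, an ADP-ribosyltransferase, from 3.54 to 10.1 FPKM in the knockout and from 6.53 to 11.5 FPKM in the control.

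Read depth sets a limit for the lowest members. In the authors' deposited table the mean normalized read count of the members ran from 44.8 for Mx1 and 48.0 for Isg15 to 7124 for Ifitm3, with a median of 635.6. Isg15, the ubiquitin-like protein that is joined to other proteins during the response, ranged from 5.90 to 8.77 FPKM in the knockout and from 2.79 to 11.7 FPKM in the control. The knockout range lay inside the control range. Usp18, the protease that removes Isg15 and also blocks the receptor, averaged 15.1 ± 3.46 FPKM in the knockout and 20.4 ± 5.59 FPKM in the control, and it was not called as deposited (limma log2 difference -0.41, SE 0.20, adjusted p = 0.0974), though it was with equal totals (-0.54).

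RNA and nucleotide enzymes split in direction. Isg20 (chr7:78913424-78920396 on mm10), an exonuclease of single-stranded RNA, had 81.1, 74.5, 69.5, 65.6 and 71.8 FPKM in the knockout libraries, against 50.8, 48.2, 53.0, 30.3 and 46.1 FPKM in the controls. Every knockout library lay above every control library. Isg20 was higher in the knockout by limma (log2 difference 0.68, SE 0.14, adjusted p = 0.000999), with a range of 0.54 to 1.08 over the 5 scalings. Samhd1 (chr2:157097533-157135265), a hydrolase of deoxynucleotides, had 24.6, 41.2, 30.4, 22.5 and 33.2 FPKM in the knockout, against 54.1, 57.9, 43.3, 56.9 and 42.2 FPKM in the control. The highest knockout library, CKO8, came just under the lowest control, WT6. Samhd1 was lower by limma (log2 difference -0.74, SE 0.16, adjusted p = 0.00116), whereas the authors' deposited table gave -0.18 with an adjusted p of 0.508. Adar, which edits adenosine in double-stranded RNA, averaged 15.9 ± 4.10 FPKM in the knockout and 16.9 ± 2.69 FPKM in the control. Cmpk2, a mitochondrial nucleotide kinase, averaged 17.1 ± 2.29 FPKM in the knockout and 17.6 ± 3.01 FPKM in the control, and neither was called under any scaling.

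The OAS proteins sense double-stranded RNA, and the catalytic members make the messenger that switches on RNase L. Oas1a averaged 33.2 ± 6.08 FPKM in the knockout and 36.9 ± 9.91 FPKM in the control, and Oas2 averaged 9.41 ± 2.36 FPKM in the knockout and 12.6 ± 5.81 FPKM in the control. Oasl2 averaged 39.2 ± 7.56 FPKM in the knockout and 53.2 ± 12.7 FPKM in the control (limma log2 difference -0.42, SE 0.17, adjusted p = 0.0528). Oasl1, which in mouse restrains translation of Irf7, was below the filter, with 6.45 to 10.3 FPKM in the knockout and 3.87 to 9.74 FPKM in the control. None of the 4 was called as deposited, and Oasl2 gained a call with upper-quartile scaling (-0.43), with equal totals (-0.56) and without WT5, WT6, CKO8 or CKO9 (lowest adjusted p = 0.0108).

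The 4 members grouped here as ubiquitin ligases and nuclear body proteins were all lower in the FPKM values as deposited, against 31.6% of all tested genes. The count depends on this grouping, in which Isg20, called higher, was placed with the RNA enzymes. Of the 4, Sp100 alone was called under all 5 scalings. Sp100 (chr1:85649988-85709998), a scaffold of PML nuclear bodies, had 33.9, 37.5, 39.1, 30.3 and 29.0 FPKM in the knockout libraries, against 65.3, 65.8, 66.1, 63.1 and 48.2 FPKM in the controls. The groups did not overlap, and WT6 stood below the other controls. Sp100 was lower by limma (log2 difference -0.84, SE 0.13, adjusted p = 7.41e-05), with -0.98 to -0.45 over the 5 scalings. Pml, which gives these bodies their name, is not a member and went the other way. It was higher by limma (log2 difference 0.38, adjusted p = 0.0128), under 4 of 5 scalings, with no overlap between the groups (background 12.9%). Trim30a, a mouse TRIM ligase that restrains inflammatory signalling, had 19.5, 15.7, 17.3, 16.5 and 15.5 FPKM in the knockout, against 27.6, 22.1, 28.6, 22.8 and 18.3 FPKM in the control. WT6 was the 1 control inside the knockout range. The log2 difference of Trim30a was -0.46 (SE 0.13, limma adjusted p = 0.0093), called under 3 scalings.

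Trim25, the ligase that activates the RNA sensor RIG-I, had 13.8, 14.1, 15.8, 9.20 and 13.2 FPKM in the knockout, against 19.9, 18.6, 15.5, 19.7 and 14.7 FPKM in the control. CKO9 reached the lowest controls, so the groups overlapped. The log2 difference of Trim25 was -0.40 (SE 0.15, limma adjusted p = 0.034), a call lost on leaving out any 1 of WT2, WT3, WT5, CKO12 and CKO13, and -0.03 at its smallest under another scaling. Dtx3l, which works as a complex with Parp9, had 14.7, 13.9, 18.0, 8.12 and 14.0 FPKM in the knockout, against 24.4, 16.8, 18.7, 19.7 and 15.9 FPKM in the control. CKO9 alone reached into the control range. The log2 difference of Dtx3l was -0.47 (SE 0.18, limma adjusted p = 0.038), lost on leaving out any 1 of 6 libraries (WT2, WT4, WT5, CKO8, CKO12 and CKO13), and it was -0.11 with median-of-ratios scaling and -0.09 after the shift, neither called; the call was also lost with library weights and with no filter. Its partner Parp9 averaged 23.6 ± 4.22 FPKM in the knockout and 21.6 ± 4.60 FPKM in the control and was not called as deposited, but was called higher with median-of-ratios scaling (0.49) and after the shift (0.51).

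**Figure D2:**
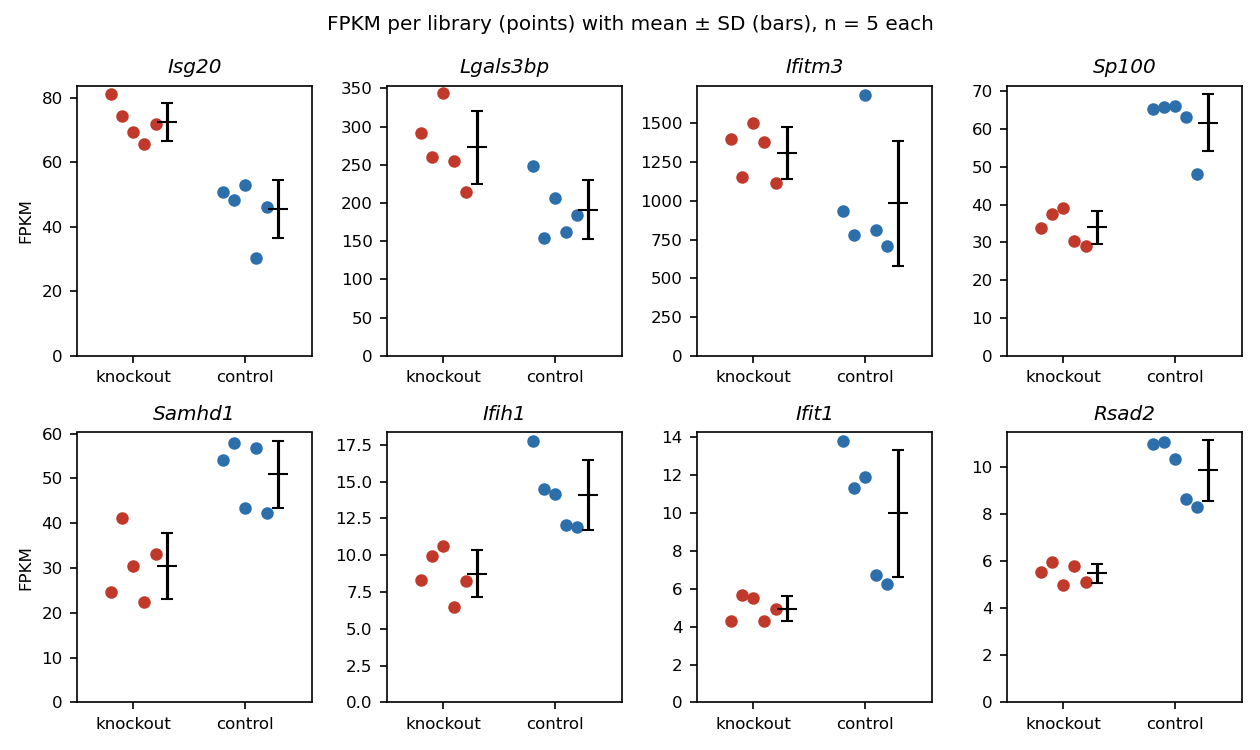
FPKM (y axis, from 0) of 8 members in the 5 knockout libraries (red) and the 5 control libraries (blue), points for libraries and bars for the mean ± SD. Isg20 lies above the controls in all knockout libraries, Sp100, Samhd1, Ifih1, Ifit1 and Rsad2 lie below them, Lgals3bp overlaps, and WT4 at 1686 FPKM sets the spread of Ifitm3.

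The interferon-induced GTPases attack the membranes around intracellular pathogens. Gbp2 had 21.8, 22.4, 25.9, 19.7 and 17.1 FPKM in the knockout libraries, against 36.4, 26.0, 29.2, 23.9 and 23.8 FPKM in the controls. CKO9 overlapped the controls WT5 and WT6. Gbp2 was lower by limma (log2 difference -0.36, SE 0.14, adjusted p = 0.043) as deposited, but the difference was 0.01 with median-of-ratios scaling and 0.02 after the shift to the authors' fold changes, and the call was lost on leaving out any 1 of 7 libraries (WT2, WT3, WT4, CKO7, CKO8, CKO12 and CKO13). Gbp3 averaged 14.1 ± 2.16 FPKM in the knockout and 17.3 ± 2.82 FPKM in the control, and Gbp7 averaged 34.6 ± 4.92 FPKM in the knockout and 40.4 ± 5.30 FPKM in the control. Neither was called as deposited; with equal totals both were called lower (-0.41 and -0.36), Gbp3 also with upper-quartile scaling.

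The immunity-related GTPases Igtp, Irgm1 and Irgm2 were not called as deposited, and all 3 were called higher with median-of-ratios scaling (0.41, 0.65 and 0.52) and after the shift (0.42, 0.67 and 0.54). The authors' deposited table had Igtp and Irgm2 higher at 0.46 (adjusted p = 0.00652) and 0.60 (adjusted p = 0.0126). Igtp had 54.2, 62.5, 68.5, 35.9 and 63.9 FPKM in the knockout, against 58.2, 47.6, 63.0, 56.2 and 49.3 FPKM in the control. Irgm1, a regulator of the family that is needed for stem cell function in mouse, had 57.8, 62.7, 64.0, 40.3 and 63.0 FPKM in the knockout, against 61.7, 41.4, 58.9, 38.1 and 39.3 FPKM in the control. CKO12 was the lowest knockout library for both, and the groups overlapped. Without CKO12 the log2 difference of Irgm1 was called higher (limma adjusted p = 0.0444). Irgm2 averaged 12.2 ± 3.39 FPKM in the knockout and 10.7 ± 2.79 FPKM in the control, and its locus overlaps that of Igtp.

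Of the 6 members with a mean of 100 FPKM or more, all but the transcription factor Irf1 code for membrane or secreted proteins. The IFITM proteins, which stop virus fusion, had the 3 highest mean FPKM values of the list. Ifitm3 had 1399, 1155, 1500.2, 1383 and 1117 FPKM in the knockout libraries, against 933, 777, 1686, 815 and 708 FPKM in the controls. WT4 was the highest of all 10 libraries and the other 4 controls lay below every knockout library. With all libraries Ifitm3 was not called as deposited (limma log2 difference 0.48, SE 0.21, adjusted p = 0.0604), and without WT4 it was higher (0.69, adjusted p = 0.000217). With all libraries it was called higher with upper-quartile scaling (0.47), median-of-ratios scaling (0.87), the shift (0.88) and library weights (0.63). Ifitm2 had 1147, 1033, 1197, 1399 and 878 FPKM in the knockout, against 1049, 832, 1686, 1051 and 914 FPKM in the control. Ifitm1 had 849, 639.6, 1270.3, 1517 and 758 FPKM in the knockout, against 1189, 837, 2109, 1098 and 1047 FPKM in the control. WT4 was again highest for both, the groups overlapped, and neither was called as deposited, while Ifitm2 was called higher after the shift (0.46).

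Lgals3bp (chr11:118392751-118402092), a secreted glycoprotein that binds galectin-3, had 291, 260.1, 344, 255 and 215 FPKM in the knockout, against 249, 154, 207, 162 and 185 FPKM in the control. WT2 reached the knockout range, and CKO13 the control range. Lgals3bp was higher by limma (log2 difference 0.51, SE 0.16, adjusted p = 0.0122), and the call held without each library in turn. Bst2, or tetherin, which holds budding virus at the cell surface, had 60.5, 63.9, 87.3, 54.8 and 72.7 FPKM in the knockout, against 67.5, 43.7, 72.0, 42.0 and 33.3 FPKM in the control. WT2 and WT4 lay among the knockout libraries and the other 3 controls below them. Bst2 was not called with all libraries (limma log2 difference 0.43, SE 0.20, adjusted p = 0.0914), and was called higher without WT2 or WT4 and under 3 of 5 scalings. Ly6e, a surface protein of the Ly6 family, had 356, 309, 391, 436 and 252 FPKM in the knockout, against 458, 212, 443, 280.1 and 204 FPKM in the control, ranges that lay over each other. Rtp4, a receptor chaperone, averaged 44.0 ± 11.2 FPKM in the knockout and 37.2 ± 16.5 FPKM in the control. It was not called as deposited, but was called higher with median-of-ratios scaling (0.69, limma adjusted p = 0.0473). After the shift it stood at 0.71 and was not called (limma adjusted p = 0.0924).

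The remaining 4 tested effectors were not called as deposited; Epsti1 was called lower with upper-quartile scaling (-0.38) and equal totals (-0.50), and Nmi higher with median-of-ratios scaling (0.39). Xaf1, an inhibitor of the caspase blocker XIAP, averaged 18.2 ± 2.24 FPKM in the knockout and 18.8 ± 7.65 FPKM in the control. Tor3a, a torsin ATPase, averaged 16.0 ± 3.31 FPKM in the knockout and 19.4 ± 3.80 FPKM in the control. Epsti1 averaged 17.9 ± 3.38 FPKM in the knockout and 23.5 ± 5.38 FPKM in the control. Nmi, a partner of STAT proteins, averaged 27.5 ± 5.26 FPKM in the knockout and 27.4 ± 6.94 FPKM in the control.

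Libraries of the same genotype differed from each other across the members, as the map of all 47 genes shows. CKO12 had the lowest value of the knockout libraries for 25 of the 37 tested members (67.6%, against 34.1% of all tested genes), and CKO9 had the highest for 27 (73%, against 43.8%). In the controls WT2 was highest for 22 (59.5%, against 41%) and WT4 for 13 (35.1%, against 35.4%), while WT6 was lowest for 21 (56.8%, against 25.4%). On average over the members, CKO9 stood 0.25 above and CKO12 0.27 below the knockout mean on the log2 scale, and WT2 stood 0.30 above and WT6 0.27 below the control mean. Over all tested genes the same libraries deviated by 0.09, -0.05, 0.11 and -0.08. The mean log2 level of the members ran from 4.98 to 5.51 over the knockout libraries and from 5.12 to 5.69 over the controls, so the groups overlapped.

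**Figure D3:**
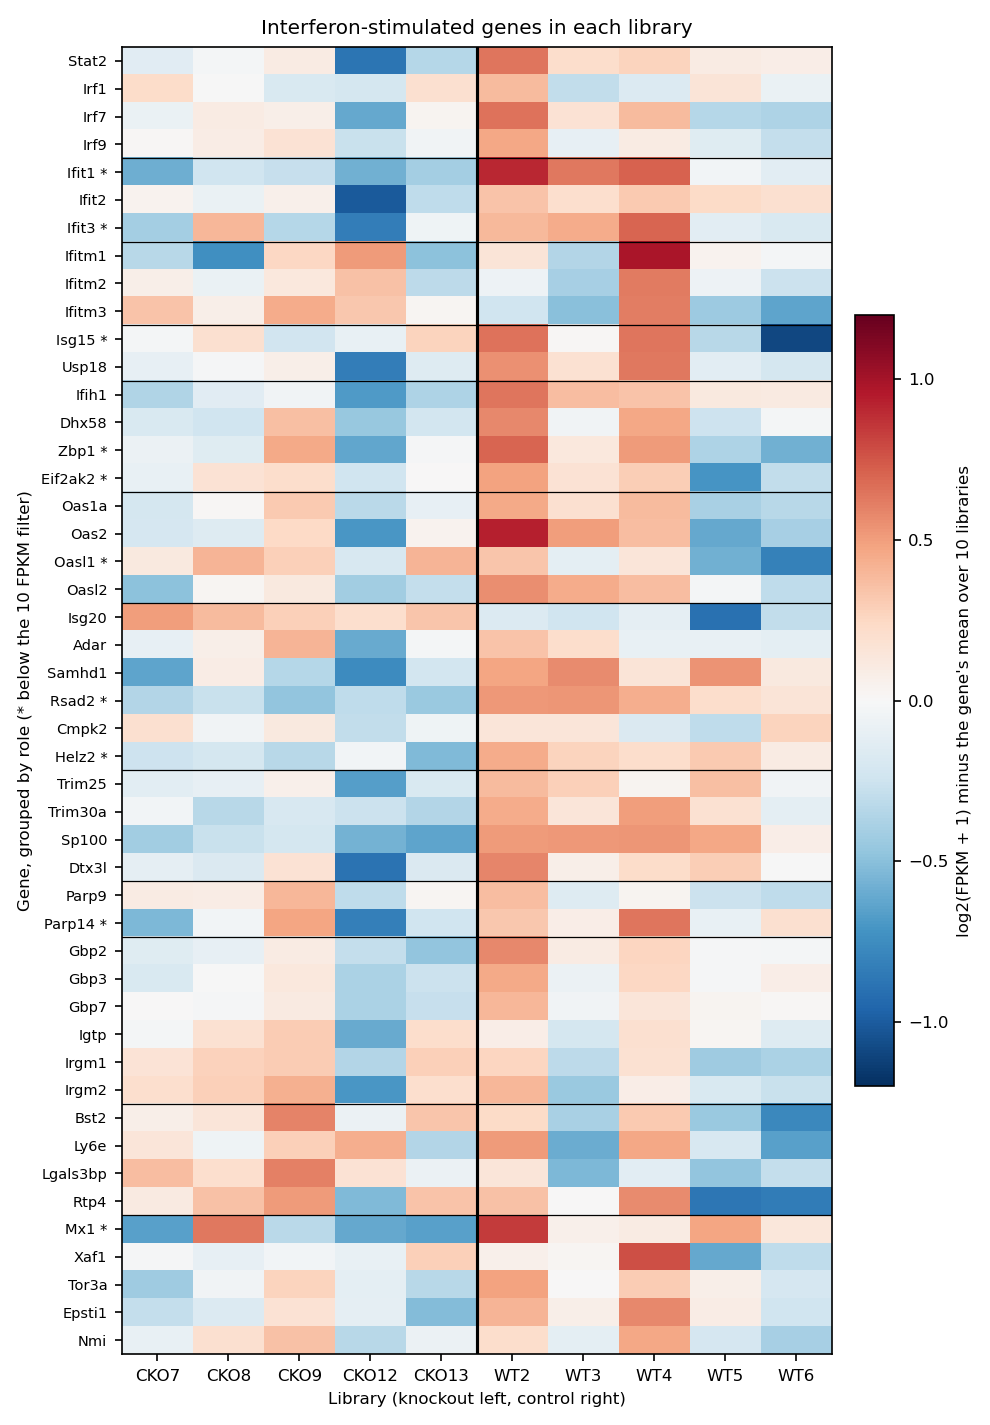
Log2(FPKM + 1) minus the gene's mean over the 10 libraries (colour), for the 47 members (rows, grouped by role, an asterisk marking those below the filter) in each library (columns, knockout left, control right). CKO12 is blue and WT2 red across most rows, Isg20 is red in all knockout libraries, and Sp100 is blue in all of them.

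**Figure D4:**
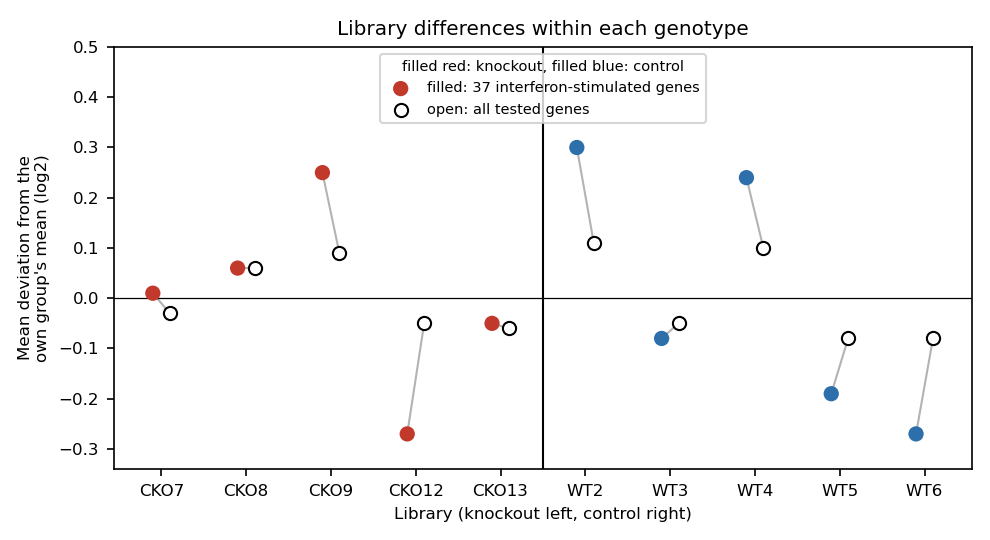
Mean deviation of each library (x axis) from the mean of its own group (y axis, log2), for the 37 tested members (filled) and all tested genes (open). The members range from -0.27 in CKO12 to 0.25 in CKO9 among knockout libraries and from -0.27 in WT6 to 0.30 in WT2 among controls, farther from 0 than all genes in these libraries.

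Within the groups the members varied together. Over the deviations of the 10 libraries from their group means, the median correlation of the 666 pairs of tested members was 0.58, against 0.20 for all pairs of tested genes, and 33.3% of pairs exceeded 0.7, against 8.89%. These libraries are shared by all genes, and their depth and scaling enter every pair, so the values are a description. Parp9, Ifih1, Irf9 and Usp18 had the highest median correlation with the other members (0.79, 0.77, 0.76 and 0.75), and Ifitm1, Ifitm2 and Irf1 the lowest (0.06, 0.15 and 0.18). The highest library exceeded the lowest by a median of 1.63 times in the knockout and 1.65 times in the control for the tested members, against 1.42 and 1.48 times for all tested genes above 0 in every library. The macrophage marker sum was also highest in CKO9, at 38.03 FPKM, and lowest in CKO12, at 17.19 FPKM, among knockout libraries. Among controls it was 192.1 FPKM in WT2, 154.6 FPKM in WT3, 320.4 FPKM in WT4, 250.4 FPKM in WT5 and 254.5 FPKM in WT6. The mean deviations of the members in these controls were 0.30, -0.08, 0.24, -0.19 and -0.27, in the same order. Bone matrix markers summed to 28260 FPKM in CKO12 and 47780 FPKM in CKO13, against 4549 to 8630 FPKM in the other knockout libraries, and to 65870 FPKM in WT6, against 3180 to 15720 FPKM in the other controls. Granulocyte markers summed to 8348 FPKM in CKO7, 40840 FPKM in CKO8, 14240 FPKM in CKO9, 24520 FPKM in CKO12 and 20430 FPKM in CKO13. In the controls they summed to 9623 FPKM in WT2, 74170 FPKM in WT3, 27800 FPKM in WT4, 70060 FPKM in WT5 and 22330 FPKM in WT6. The part of these cell types in the library differences was not tested.

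Ratios between neighbouring genes within a library do not depend on scaling. The members form 9 neighbouring pairs within 50 kb, a distance chosen after the values were seen, and no test was made of them. The groups did not overlap for the ratio of 2 pairs (22.2%), against 37.7% of the 5805 neighbouring pairs of tested genes. The pairs with Rsad2, Ifit3 and Oasl1 hold a member below the filter, which the background does not, so these shares are of unlike sets. Dtx3l to Parp9 was 0.576 ± 0.0691 in the knockout and 0.892 ± 0.101 in the control (SD, n = 5 each). The loci of this pair overlap on opposite strands and the strand setting of the authors' counting is not given in the sources used here, so reads of the overlap cannot be told apart. Oasl2 to Oasl1 was 4.43 ± 0.748 in the knockout and 8.27 ± 1.29 in the control. These genes lie on the same strand of chromosome 5 with a gap of 11006 bp. Rsad2 to Cmpk2, which lie head to head on chromosome 12 with a gap of 12752 bp, was 0.328 ± 0.0623 in the knockout and 0.573 ± 0.107 in the control, and CKO12 at 0.421 overlapped WT6 at 0.398. Ifitm1 to Ifitm3 was 0.757 ± 0.220 in the knockout and 1.29 ± 0.147 in the control, overlapping at CKO12. The ratios of the other 5 pairs, among the Gbp genes, the Ifit genes, Igtp with Irgm2, and Ifitm2 with Ifitm1, also overlapped between the groups, for example Gbp7 to Gbp3 at 2.46 ± 0.173 in the knockout and 2.34 ± 0.118 in the control.

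**Figure D5:**
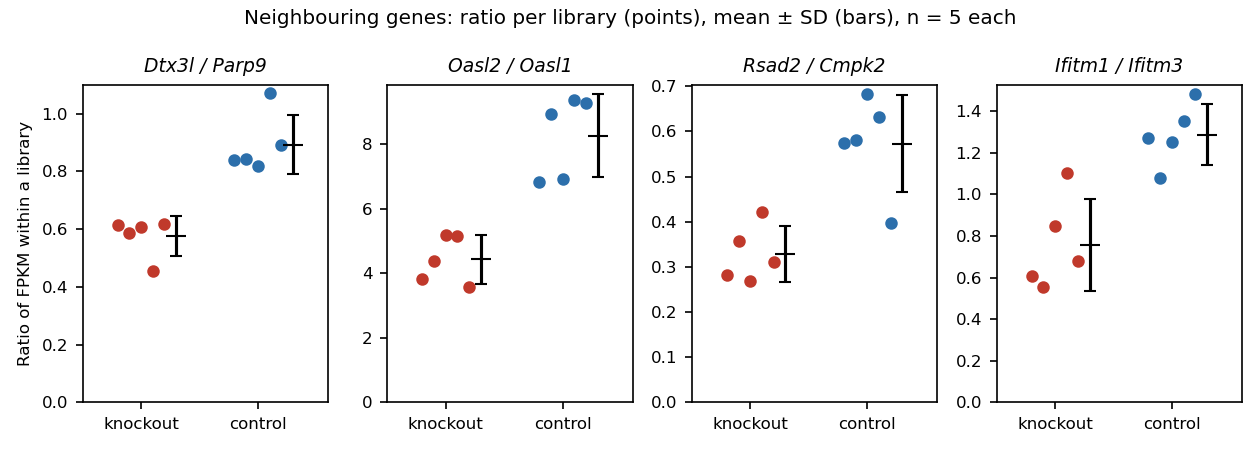
Ratio of FPKM within a library (y axis, from 0) for 4 neighbouring pairs of members, the 4 with the largest differences, in knockout (red) and control (blue) libraries, with bars for the mean ± SD. Dtx3l to Parp9 and Oasl2 to Oasl1 do not overlap between the groups, and Rsad2 to Cmpk2 and Ifitm1 to Ifitm3 overlap at 1 library or more.

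Of the 18 members with ISRE letters near their start, 13 were tested, 0 were higher and 4 lower by limma (background 21.1% and 31.6%), and their median log2 difference was -0.12. At an unadjusted p under 0.05, 1 of the 13 was higher and 4 were lower. Of the 19 with a window and no ISRE match, 17 were tested, 2 were higher and 5 lower, and the median was -0.20. The unadjusted counts of these 17 were 2 higher and 7 lower. Isg20, Sp100, Lgals3bp and Samhd1, called under 4 or 5 scalings, held no ISRE match in their windows. Isg20 and Samhd1 each held a GAS match, at -73 and -235 bases from a start, and the calls were not split by GAS. The printed stretches of Ifit1, Rsad2, Gbp2 and Trim30a belong to genes that were lower as deposited. Of these, Ifit1 and Rsad2 were called only with the lower filter, and Gbp2 stood at 0.01 and 0.02 under 2 scalings. The other printed stretches belong to Isg15 and Irgm1, which were not called as deposited. The 10 members with no window were not examined.

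A further 71 interferon-stimulated genes outside the list gave 38 tested genes, of which 5 (13.2%, background 21.1%) were higher and 10 (26.3%, background 31.6%) lower, with a median of -0.22 against -0.12 for all tested genes. With median-of-ratios scaling 13 were higher (background 44.2%) and 4 lower (background 11.8%). After the shift the counts were the same, with a background of 43.7% and 11.5%. The T-cell specific GTPases Tgtp1 and Tgtp2, near-identical copies whose reads may be divided between them, averaged 83.4 ± 25.2 FPKM and 209.4 ± 61.7 FPKM in the knockout, against 43.7 ± 12.2 FPKM and 116.9 ± 40.3 FPKM in the control. Both were higher by limma (log2 differences 0.90 and 0.84, adjusted p = 0.00973 and 0.0261). Among the genes called lower, the 4 with the largest differences were Ms4a6b, a membrane protein (-0.87), Mndal, a DNA-binding protein of the Ifi200 family (-0.85), and the TRIM ligases Trim12a (-0.81) and Trim34a (-0.76). All 4 had no overlap between the groups (background 22.1%) and were called under all 5 scalings, and their choice by size favours both traits. Of the 38 tested genes, only these 4 were called lower under all 5 scalings (background 11%). Parp10 and Tgtp1 were the 2 called higher under all 5 (background 15.3%).

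Genes that make, sense or carry the interferon signal were listed separately, 60 in all, with 3 also on the previous list. Of the 25 tested, 0 were higher (background 21.1%) and 12 (48%) lower (background 31.6%) by limma, with a median of -0.35 against -0.12 for all tested genes; at an unadjusted p under 0.05 the counts were 0 higher and 15 lower, and median-of-ratios scaling gave 5 higher (background 44.2%) and 5 lower (background 11.8%). Ifnar1 averaged 20.9 ± 2.89 FPKM in the knockout and 27.2 ± 3.42 FPKM in the control (limma log2 difference -0.37, adjusted p = 0.0237), and this difference was 0.00 and 0.02 with median-of-ratios scaling and after the shift. Ifnar2 (-0.19, limma adjusted p = 0.157), Ifngr2 (-0.35, 0.178) and Jak1 (-0.34, 0.0596) were not called. Ifngr1 was at -0.07 and was called higher at 0.31 with median-of-ratios scaling and 0.33 after the shift. Tyk2 was called lower (-0.36, limma adjusted p = 0.0307), and stood at 0.01 after the shift.

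The 6 further pathway genes with the largest differences among those called were all lower. Socs3, a feedback inhibitor of cytokine receptors, averaged 18.3 ± 11.4 FPKM in the knockout and 48.8 ± 18.0 FPKM in the control (limma log2 difference -1.45, adjusted p = 0.0184). Aim2, a sensor of cytosolic DNA (-0.95), Irf2, which competes with Irf1 for its sites (-0.90), Irf5, a factor of myeloid responses (-0.90), Ikbke, a kinase of the induction step (-0.90), and Il10rb, a chain shared with the receptor of interferon lambda (-0.79), had no overlap between the groups (background 22.1%). These 5 were the only ones of the 25 tested called lower under all 5 scalings (background 11%), and 0 were called higher under all 5 (background 15.3%). Their choice by size favours both the lack of overlap and the calls. Irf2 averaged 14.5 ± 3.40 FPKM in the knockout and 27.6 ± 5.37 FPKM in the control. The 18 interferon genes of the list were near 0: the highest value was 1.25 FPKM in the knockout, for Ifna15, and 0.94 FPKM in the control, for Ifna6, Ifna1 was listed at 0 in all libraries, and none could be tested.

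The authors' deposited table gave its own fold changes for the 47 members, made from read counts. It had 12 members higher (background 17.1%) and 3 lower (background 11.5%) at an adjusted p under 0.05. That background covers 23405 genes, far more than the 6913 above the filter used here. By limma after the shift to these fold changes, 11 of the 37 tested members were higher, against 43.7% of the 6913 genes. In the same fit 1 member was lower, against 11.5%. The members' median log2 fold change in the authors' deposited table was 0.13, against 0.29 over the genes tested here. The 3 lower in the authors' deposited table were Ifit1, Rsad2 and Sp100. Isg20 stood at 0.96, Lgals3bp at 0.92 and Sp100 at -0.51 in the authors' deposited table, the same signs as in the FPKM values. The authors' deposited table also had Irgm1 higher at 0.67 (adjusted p = 3.51e-05) and Oasl1 higher at 0.81 (adjusted p = 0.000612), which were not called from FPKM as deposited. The loci of 20 members overlap another annotated gene, 14 of them one on the opposite strand, as Gm17017 does for Sp100, and reads of such overlaps cannot be told apart without the strand.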

How the data were processed

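The authors' deposited table gives, for 52097 genes, a value per library and their own comparison. The values are taken as FPKM because the ratio of the deposited mean count to them rises with exon length (Spearman 0.721 over 12782 genes); the header names no unit, and the authors' scaling is not given in the sources used here. The deposited baseMean column (a normalized signal in reads), log2 fold changes, p-values and Wald score are the authors' DESeq2 output, per the file headers, and were only copied. Bowtie 0.12.9, Cufflinks 2.1.1, HTSeq and mm10 are named without roles, per the submitters' processing notes; the strand setting is not given in the sources used here. Column names do not carry the numbers of the sample titles, so columns were assigned to groups only.

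The 6913 genes that reached 10 FPKM in 5 or more libraries were fitted with limma 3.58.1 (trend and robust options, R 4.3.3) on log2(FPKM + 1), knockout minus control, with Benjamini-Hochberg adjustment over all genes; the fit was checked on simulated data. The design allowed for counts or FPKM, and FPKM was found. Alternatives were other pseudocounts, filters and scalings, library weights, and leaving out each library. Relative depth came from genes seen in few reads, where the steps of the deposited baseMean column and the FPKM values give whole reads. Loci are from GENCODE M21 and promoters from RefSeq (GRCm38.p6). Members called by limma and the 8 highest others at 50 FPKM or more have library values printed; the further lists always name the receptors, Jak1 and Tyk2, plus 6 called genes by size; 1 further gene that this rule names is not reported here. Pml and Parp10 are named outside this rule. The members and lists were chosen with earlier results of these data known.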

Additional observations from a re-analysis of the deposited data

Results flagged for a closer look

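Across 94 sets of 5 libraries, 1 for each of the 47 members in each genotype, 9 held a library far from the others. The rule was Dixon's test at the 95% level (critical value 0.71), where chance gives about 1 in 20 for independent, normal values. The sets share the same libraries and the members varied together, so they are not independent. The flagged share over all tested genes is not given here. The control library WT4 stood above the other controls for all 3 Ifitm genes, with 2109 FPKM for Ifitm1 (next 1189), 1686.4 FPKM for Ifitm2 (next 1051) and 1686.2 FPKM for Ifitm3 (next 933). Irgm1 at 40.3 FPKM and Irgm2 at 6.44 FPKM were low in the knockout library CKO12, where the next libraries had 57.8 and 12.9 FPKM. Sp100 at 48.2 FPKM was low in the control library WT6 (next 63.1 FPKM) and still above every knockout library. Dhx58 at 23.2 FPKM was high in CKO9, Mx1 at 3.31 FPKM in CKO8 and Xaf1 at 22.1 FPKM in CKO13. The causes were not tested.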

How the results depend on the processing

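Pseudocounts of 0.1 and 5 changed no call of the 57 single genes followed. With a filter on mean FPKM of 10, Aim2 was not tested, so 11 pathway genes were lower in place of 12. With median-of-ratios scaling, members were 12 higher and 2 lower, the further interferon-stimulated genes 13 and 4, and pathway genes 5 and 5. The background with that scaling was 44.2% higher and 11.8% lower. After the shift to the authors' fold changes the same counts were 11 and 1, 13 and 4, and 5 and 5. The background was then 43.7% and 11.5%. With equal totals, members were 1 higher (background 15.3%) and 14 lower (background 38.7%), and 2 of the further genes were higher. Upper-quartile scaling gave 4 members higher (background 23.1%). Library weights gave 5 members, 10 further genes and 1 pathway gene higher. With no filter 1 member was higher and 5910 genes were called, against 3642 as reported. With a filter of 1 FPKM 6687 genes were called, and 23 further genes and 20 pathway genes were lower (background 36.4%). Signs turned with median-of-ratios scaling and the shift for Irf9 (0.37 and 0.38), Gbp2 (0.01 and 0.02), Ifnar1 (0.00 and 0.02) and Ifngr1 (0.31 and 0.33), and with the shift for Tyk2 (0.01). Of the genes followed, 14 more turned sign under each of these 2 scalings, 6 with equal totals, 1 with upper-quartile scaling and 3 with library weights, called in neither setting. The scalings differ by construction in their factor per library; no other cause was tested.

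Leaving out each library in turn gave 2 to 4 members higher (4 without WT4) and 4 to 12 lower, with 4 without WT2, 5 without CKO12 and 4 without CKO13, against 9 with all libraries. The further genes gave 4 to 7 higher and 6 to 12 lower (6 without WT2), and pathway genes 0 to 1 higher (1 without CKO12) and 9 to 15 lower. Isg20, Lgals3bp, Sp100, Samhd1, Ifih1 and Trim30a kept their calls without each library. No paired analysis was possible because the column names carry no replicate number shared by both groups. With 5 libraries a group, the FPKM values hold no read totals, so counting error enters only through the spread, and low members such as Mx1 and Isg15 rest on few reads.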
